A study of Homo sapiens with 4 samples.

Results

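The genes described here encode the mitochondrial respiratory chain (complexes I to IV) and the ATP synthase (complex V), with the assembly factors, pseudogenes and inhibitor whose symbols begin in the same way. The rule goes by name and takes every probe that the array's probe-to-gene table pairs with a single symbol starting with NDUFA, NDUFB, NDUFC, NDUFS, NDUFV, SDHA to SDHD, UQCR, COX4 to COX8 or ATP5. This gave 127 of the array's 48803 probes, for 89 of its 18665 named genes. Of these, 106 probes for 78 genes had a detection p-value under 0.01 on at least 2 of the 4 arrays and were tested, among 13152 tested probes for 8862 named genes in all.

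RNA came from MIA PaCa-2, an established human pancreatic cancer cell line of epithelial origin. Cells received IL-1β at 2 ng/ml for 36 h or were left untreated, and total RNA was hybridised to Illumina bead chips of the WG-6 v3 design, 2 arrays per group. IL-1β is an inflammatory cytokine that signals through the IL-1 receptor and NF-κB, and the comparison asks how transcript levels in treated cells differ from those in untreated cells. The labels do not say whether the 2 samples of a group were separate cultures. The p-values therefore rest on how far the arrays of a group differed, a spread that may be technical. For each probe that spread was drawn towards the spread shared by all tested probes.

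Complexes I and II pass electrons from NADH and succinate to ubiquinone, complex III passes them on to cytochrome c, and complex IV passes them to oxygen. Complexes I, III and IV pump protons across the inner membrane, and the ATP synthase uses the returning protons to make ATP. All complexes except complex II combine subunits encoded in the nucleus with subunits encoded in mitochondrial DNA. The mitochondrially encoded subunits are not analysed here, nor are 14 further coding symbols with these prefixes, among them SDHB and UQCRFS1.

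Raw intensity averaged 482.1 and 448.9 on the IL-1β arrays, against 526.7 and 549.1 on the control arrays, and between 12740 and 13157 probes were detected per array. The tested member probes made up 1.55% and 1.48% of the summed raw intensity on the IL-1β arrays, against 1.55% and 1.59% on the control arrays. The label was checked against markers. Keratin genes KRT8, KRT18 and KRT19 and the mesenchymal gene VIM were detected on all 4 arrays. The epithelial genes EPCAM and CDH1 and the mesenchymal genes CDH2 and FN1 were detected on 0 arrays. The acinar markers (5 genes), islet markers (2 genes) and fibroblast markers (3 genes) were also detected on 0 arrays. Of the leukocyte markers PTPRC and CD3E were detected on 0 arrays and CD14 on 2, and of the endothelial markers VWF was detected on 0 arrays and PECAM1 on 1.

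Most members were detected clearly. Of the 106 tested probes 103 were detected on all 4 arrays. The ATP5MC2 probe closest inside the threshold had detection p-values of 0.00527 and 0.00922 in IL-1β cells and 0.0132 and 0.0119 in control cells. The NDUFC2 probe lay just outside it, at 0.00791 and 0.0105 in IL-1β cells and 0.0119 and 0.0145 in control cells. Of the 21 probes that were not tested, 19 were detected on 0 arrays. In all, 11 genes therefore had no tested probe: NDUFA5, NDUFB4, NDUFC2, NDUFS6, the pseudogene SDHAP3 and 6 isoforms of complex IV subunits described below.

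No member passed the test after 36 h of IL-1β. With limma, on log2 intensities normalised across arrays and with p adjusted over all 13152 probes, 0 of 106 member probes had an adjusted p under 0.05, against a background of 0.0% of all tested probes. The smallest adjusted p of a member was 0.127. At an unadjusted p under 0.05 there were 6 member probes (5.66%), 3 higher and 3 lower in IL-1β cells (2.83% each way), whereas 18.5% of all tested probes passed that mark, 9.25% higher and 9.28% lower. Without control replicate 1 the member count was 3 (2.83%), against 13.4% of all tested probes. The values of the groups did not overlap for 39 member probes (36.8%), against 50.7% of all tested probes, with 24 of the 39 higher (22.6% of the members, against 25.5% of all tested probes) and 15 lower (14.2%, against 25.2%) in IL-1β cells. A difference of at least 1.5-fold without overlap was reached by 0 member probes, against 3.05% of all tested probes.

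With each gene read by its brightest tested probe, 41 of the 78 member genes were higher and 37 lower in IL-1β cells. Their median log2 difference, IL-1β minus control, was 0.015, and over all 8862 tested genes it was 0.001. The SD of the log2 differences was 0.142 over the members and 0.242 over all tested genes. Of the members, 48 (61.5%) lay within 0.1 of no difference on the log2 scale, against 39.2% of all tested genes. The 95% confidence interval lay within 1.5-fold in both directions for 73 members (93.6%), against 76.4% of all tested genes.

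Member probes are bright as a set, and bright probes have narrower intervals. The median log2 signal of the brightest probe was 11.48 over the members and 8.81 over all tested genes. Among genes with a mean log2 signal of at least 10, the SD of the differences was 0.113 over 58 members and 0.173 over all such genes. Of these members 67.2% lay within 0.1, against 50.6% of all such genes. The interval lay within 1.5-fold for 100% of these members, against 92.7% of all such genes. Above the same floor, where the median log2 signal was 11.72 over member probes and 11.12 over all probes, 2 of 67 member probes (2.99%) passed an unadjusted p of 0.05, against 10.9% of all such probes, and 22 (32.8%) did not overlap between groups, against 52.3%. In RNA from whole cultures, fewer cells of a kind and less RNA per cell cannot be told apart.

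**Figure D1:**
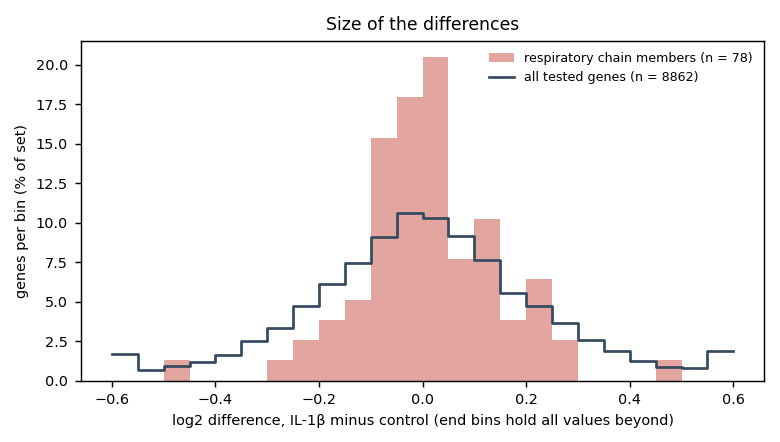
Share of genes (percent of each set, y axis) in bins of the log2 difference IL-1β minus control (x axis), for 78 respiratory chain members (filled bars) and 8862 tested genes (line). The members are concentrated near 0, with an SD of 0.142 against 0.242 for all tested genes.

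Differences between single arrays were compared across and within groups. Over the members, an IL-1β array minus a control array had an SD of log2 differences of 0.196, 0.178, 0.158 and 0.189 in the 4 possible pairs. Between the IL-1β arrays the median log2 difference over the members, replicate 1 minus replicate 2, was 0.085 with an SD of 0.154, and 55 of 78 genes were higher in replicate 1. Between the control arrays the median was -0.023 with an SD of 0.162, so 3 of the 4 cross-group SDs lay above both within-group SDs and the remaining one lay between them. Over all tested genes the SDs were 0.294, 0.289, 0.276 and 0.285 across groups, against 0.222 between the IL-1β arrays and 0.211 between the control arrays. The SD of 0.142 given above is that of differences between means of 2 arrays and is not comparable with these. The difference between group means exceeded both within-group differences for 22 of 78 members, and for 3418 of all 8862 tested genes. The plot of between-group and within-group differences shows the shift of the IL-1β arrays against each other, which is larger than the shift between the group means.

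**Figure D2:**
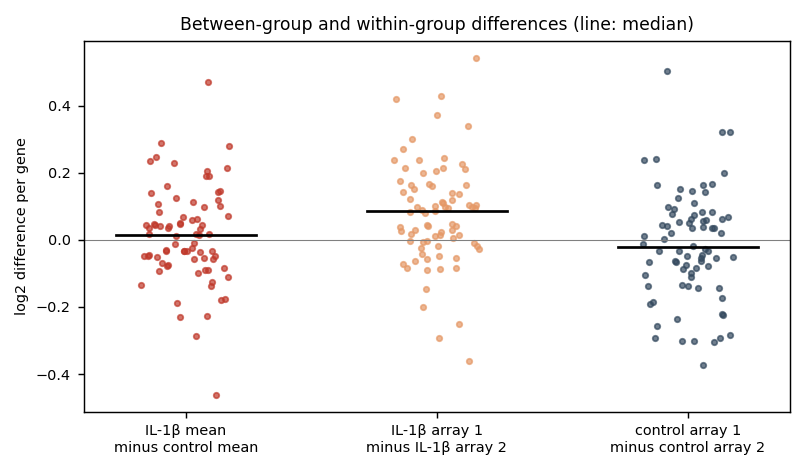
Log2 difference per member gene (points, 78 genes, y axis) between the group means, between the IL-1β arrays and between the control arrays, with the median of each as a line. The first set of points uses means of 2 arrays and the others single arrays, and the medians are 0.015, 0.085 and -0.023.

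Complex I, the NADH dehydrogenase, had 29 tested subunit genes. Of these 13 were higher and 16 lower in IL-1β cells, with a median log2 difference of -0.033 that turned to 0.008 without control replicate 1 and to 0.003 without IL-1β replicate 2. All 29 intervals lay within 1.5-fold. The extremes were NDUFB3, an accessory subunit of the membrane arm, and NDUFB7, another accessory subunit on the intermembrane-space side.

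NDUFB3 had log2 intensities of 11.74 and 11.60 in IL-1β cells, against 11.43 and 11.35 in control cells. Both IL-1β values lay above both control values, and the ratio was 1.21-fold (95% interval 1.01 to 1.45) with a limma adjusted p of 0.249. Its dimmer probe had a log2 difference of 0.13 with an adjusted p of 0.572. NDUFB7 had 10.99 and 10.77 in IL-1β cells, against 11.08 and 11.03 in control cells, a log2 difference of -0.18 ± 0.12 (SE) with an adjusted p of 0.465. NDUFA9, an accessory subunit near the ubiquinone site, had 10.39 and 10.37 in IL-1β cells, against 10.21 and 10.14 in control cells. These groups did not overlap, and the log2 difference was 0.20 ± 0.09 (SE) with an adjusted p of 0.319.

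The subunits that carry electrons in complex I were among those that did not pass the test. NDUFV1, the flavoprotein that takes electrons from NADH, had 11.21 and 11.17 in IL-1β cells, against 11.35 and 11.38 in control cells. The groups did not overlap, the log2 difference was -0.18 ± 0.09 (SE), and the adjusted p was 0.374. NDUFV2, which carries an iron-sulfur cluster beside it, had a log2 difference of 0.04 with an adjusted p of 0.879. The 6 NDUFS subunits, among them the iron-sulfur proteins, had log2 differences between -0.14 (NDUFS1) and -0.01 (NDUFS5), with limma adjusted p of at least 0.64. The signs of NDUFS1, NDUFS3, NDUFS7 and NDUFS8 turned without control replicate 1, and that of NDUFS7 also turned without IL-1β replicate 1. NDUFS1, the largest of them, had 7.06 and 7.11 in IL-1β cells, against 7.38 and 7.06 in control cells, so that the groups overlapped. NDUFS7, which binds the last cluster before ubiquinone, had 11.62 and 11.77 in IL-1β cells, against 11.79 and 11.69 in control cells.

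Complex II, the succinate dehydrogenase, contributed 3 tested subunits. SDHA, the flavoprotein that oxidises succinate, had 10.32 and 10.31 in IL-1β cells, against 10.31 and 10.25 in control cells. SDHC and SDHD anchor the enzyme in the membrane: SDHC had 10.23 and 10.22 in IL-1β cells, against 10.23 and 10.15 in control cells. SDHD had 10.40 and 10.42 in IL-1β cells, against 10.39 and 10.35 in control cells. By these brightest probes the log2 differences were 0.04 for SDHA, 0.03 for SDHC and 0.04 for SDHD, all with a limma adjusted p of at least 0.847. A second SDHC probe had a log2 difference of -0.13 without overlap (limma adjusted p 0.564), and a second SDHA probe one of -0.06. With probes averaged per gene 1 of the 3 was higher and 2 were lower in IL-1β cells. The median of 0.036 was -0.043 when taken from the series matrix and -0.099 with the scaling factors that the averaged table implies. Relative to the median of all tested probes under those settings, which was -0.0787 and -0.121, it was 0.036 and 0.022, so the relative direction did not turn.

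Complex III, the cytochrome bc1 complex, had 7 tested subunits under the name rule, which leaves out its subunit CYC1. Of these 5 were higher in IL-1β cells, with a median log2 difference of 0.10 that was -0.01 without control replicate 1. After scaling to the median of all probes it was -0.13, which is 0.089 relative to the median of all tested probes there (-0.218). UQCRC2, a core protein of the matrix side, had 9.40 and 9.37 in IL-1β cells, against 9.09 and 9.20 in control cells. The groups did not overlap, and the ratio was 1.18-fold (95% interval 0.994 to 1.39) with an adjusted p of 0.282. Its partner UQCRC1 had 10.14 and 9.98 in IL-1β cells, against 9.90 and 10.01 in control cells, and overlapped. UQCRB, a ubiquinone-binding protein, had a log2 difference of 0.19 ± 0.11 (SE) with an adjusted p of 0.43. UQCR11, a small accessory subunit with a dim probe, had 6.31 and 6.56 in IL-1β cells, against 6.51 and 6.82 in control cells, with an adjusted p of 0.469.

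Complex IV, the cytochrome c oxidase, had 10 tested subunits, 6 higher and 4 lower in IL-1β cells, with a median log2 difference of 0.032 and all 10 intervals within 1.5-fold; that median was -0.025 without control replicate 1. COX4I1, the largest nuclear-encoded subunit, had 13.95 and 14.01 in IL-1β cells, against 13.98 and 14.04 in control cells. The groups overlapped, and the log2 difference was -0.03 ± 0.10 (SE) with an adjusted p of 0.891. COX5A and COX5B, which bind the outside of the catalytic core on the matrix side, had log2 differences of 0.05 and 0.10. The extremes were COX6B1, with a log2 difference of 0.15 and overlapping groups, and COX7B. COX7B had 10.63 and 10.63 in IL-1β cells, against 10.98 and 10.66 in control cells. The groups did not overlap, with control replicate 1 above the rest, and its log2 difference of -0.19 was -0.03 without control replicate 1.

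**Figure D3:**
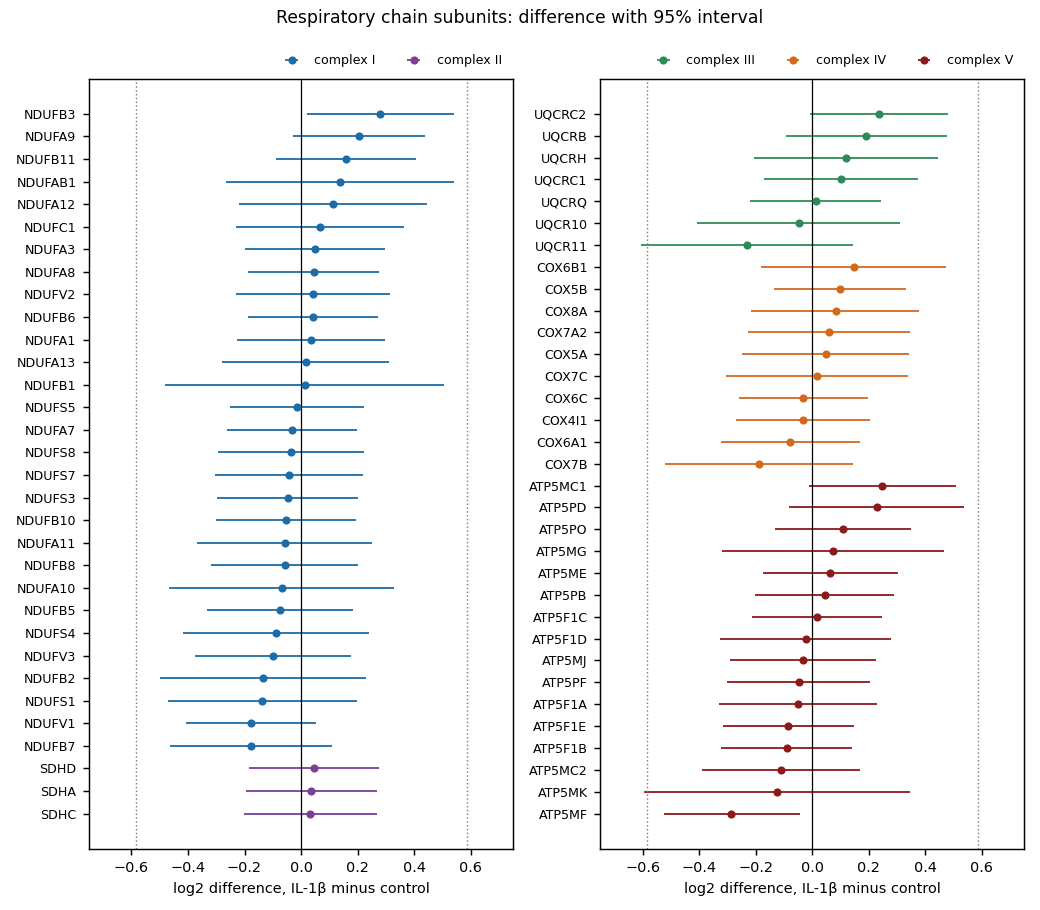
Log2 difference IL-1β minus control (points, x axis) with its 95% confidence interval (lines) for 65 subunit genes of complexes I to V (y axis), each read by its brightest probe. Dotted lines mark 1.5-fold; 63 of the 65 intervals lie between them, and the exceptions are UQCR11 and ATP5MK, which reach past the lower line.

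Complex IV subunits come in isoforms, of which some are made in most tissues and others mainly in muscle, lung or testis. The generally made isoform was the one detected in each of the 6 pairs on the array. COX4I1, COX6A1, COX6B1, COX7A2, COX7B and COX8A had detection p-values of 0 on all 4 arrays. The 7 probes of COX4I2, COX6A2, COX6B2, COX7A1, COX7B2 and COX8C were detected on 0 arrays, with detection p-values from 0.0738 to 0.906. Their raw intensities lay between 136.1 and 174.4 and gave no sign of detection in either group: COX4I2, the lung isoform, had 147.1 and 136.1 in IL-1β cells, against 161.5 and 174.1 in control cells. A probe at background gives only an upper bound, so absence of these transcripts was not shown.

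**Figure D4:**
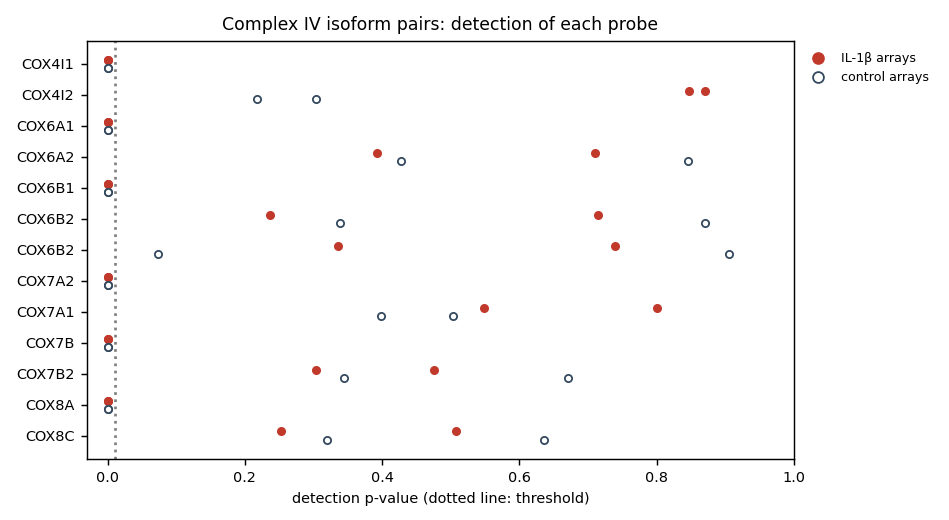
Detection p-value (x axis) of each probe of the complex IV isoform pairs (y axis) on the IL-1β arrays (filled) and control arrays (open), with the threshold of 0.01 as a dotted line. The 6 generally made isoforms sit at 0 on all arrays, and the 7 probes of the restricted isoforms lie between 0.0738 and 0.906.

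Promoters are shown for 2 of these pairs as examples in which the detected isoform has more CpG dinucleotides than the undetected one and also holds the motif marked below. The COX6B pair goes the other way in CpG dinucleotides. The sequences are the 250 bases before the annotated start, from RefSeq on GRCh38.p14, written 5′ to 3′ on the strand of the gene. Capitals mark CTTCCGG, the reverse complement of CCGGAAG, the core of the sites of ETS factors such as GABPA, a regulator of respiratory chain genes. COX6A1 is at chr12:120437863-120438112 on the plus strand, and COX6A2, the muscle isoform, is at chr16:31428361-31428610 on the minus strand. COX8A is at chr11:63974370-63974619 and COX8C at chr14:93346932-93347181, both on the plus strand.
COX6A1: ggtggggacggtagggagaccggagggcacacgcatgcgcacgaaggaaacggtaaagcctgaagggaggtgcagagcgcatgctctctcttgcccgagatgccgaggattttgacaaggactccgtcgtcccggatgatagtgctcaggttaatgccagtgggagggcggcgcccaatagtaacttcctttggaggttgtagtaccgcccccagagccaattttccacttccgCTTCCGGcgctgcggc
COX6A2: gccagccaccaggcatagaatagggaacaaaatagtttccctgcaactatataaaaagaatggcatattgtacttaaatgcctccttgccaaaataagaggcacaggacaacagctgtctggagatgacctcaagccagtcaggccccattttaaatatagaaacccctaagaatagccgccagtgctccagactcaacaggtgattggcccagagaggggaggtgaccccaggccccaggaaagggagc
COX8A: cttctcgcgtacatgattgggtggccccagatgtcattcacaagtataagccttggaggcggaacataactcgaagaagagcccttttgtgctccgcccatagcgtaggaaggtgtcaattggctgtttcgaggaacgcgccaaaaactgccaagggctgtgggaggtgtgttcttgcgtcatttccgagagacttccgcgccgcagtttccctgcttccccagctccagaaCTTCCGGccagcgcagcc
COX8C: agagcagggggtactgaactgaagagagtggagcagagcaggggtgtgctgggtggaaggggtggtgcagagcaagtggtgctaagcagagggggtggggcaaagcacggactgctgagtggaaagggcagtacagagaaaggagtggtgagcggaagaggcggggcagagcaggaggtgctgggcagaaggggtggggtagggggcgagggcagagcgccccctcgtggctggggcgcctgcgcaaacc
The COX6A1 promoter has 19 CpG dinucleotides and the COX6A2 promoter has 1. The COX8A promoter has 16 and the COX8C promoter 8, although the COX8C promoter has the higher GC content, 65.2% against 56.0%. Over 300 bases around the start, COX6B1 has 16 CpG dinucleotides and 56.7% GC, whereas the undetected COX6B2 has 31 and 72.0%. The motif begins 16 bases before the start in COX6A1 and 18 bases before it in COX8A. The detected isoforms COX7B and COX7A2 had no CCGGAAG on either strand over 300 bases around their starts. Over that window COX7B has 14 CpG dinucleotides and the undetected COX7B2 has 8.

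Over a window of 300 bases, 250 before and 50 after each start, 74 of the 89 member genes matched the RefSeq table, with 89 starts. CCGGAAG on either strand was found at 21 of 67 starts of subunit genes with a tested probe (31.3%), against 10.3% of all 35116 starts in the table and 12.8% of the starts of coding genes. By complex it was found at 5 of 32 starts in complex I, 1 of 2 in complex II, 3 of 6 in complex III, 5 of 10 in complex IV and 7 of 17 in complex V. AAGATGGC on either strand, the core of YY1 sites, was found at 16.4% of the subunit starts, against 2.89% of all starts and 3.53% of coding starts. By complex it was found at 6 of 32 starts in complex I, 0 of 2 in complex II, 1 of 6 in complex III, 0 of 10 in complex IV and 4 of 17 in complex V. The 67 subunit starts belong to 57 genes, so some genes count more than once. The restricted isoforms had CCGGAAG at 0 of 4 starts, too few to tell from the 12.8% of coding starts. COX4I2 and COX7A1 matched no start. The motifs can share the letters AAG where they adjoin. A match describes the letters only, and is not a binding site.

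Complex V, the ATP synthase, had 16 tested subunits, 7 higher and 9 lower in IL-1β cells, with a median log2 difference of -0.029 that was 0.029 without IL-1β replicate 2 and 0.065 after scaling to the median of the tested probes. The catalytic head was among the brightest members. ATP5F1B, the β subunit that makes ATP, had 13.89 and 13.91 in IL-1β cells, against 14.02 and 13.97 in control cells. The groups did not overlap, and the log2 difference was -0.09 ± 0.09 (SE) with an adjusted p of 0.659, and it was 0.07 after scaling to the median of the tested probes. ATP5F1A, the α subunit, had 13.48 and 13.57 in IL-1β cells, against 13.68 and 13.48 in control cells, and its second probe had a log2 difference of -0.02. ATP5F1C, the central stalk, had a log2 difference of 0.02, and the 5 head and stalk subunits of F1 ranged from -0.09 to 0.02.

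ATP5MF, the f subunit in the membrane part of the ATP synthase, had a log2 difference of -0.29, close in size to the 0.28 of NDUFB3. Without IL-1β replicate 2 the values were -0.24 for ATP5MF and 0.35 for NDUFB3. ATP5MF had 11.74 and 11.65 in IL-1β cells, against 11.95 and 12.01 in control cells. Both IL-1β values lay below both control values, and the control level was 1.22-fold (95% interval 1.03 to 1.44) that of IL-1β cells, with a limma adjusted p of 0.217 that was 0.0413 with a trended, robust prior. Its other probe had a log2 difference of -0.17 with an adjusted p of 0.534 and overlapping groups. ATP5MC1, which encodes the c subunit of the rotating ring, had 11.07 and 10.92 in IL-1β cells, against 10.79 and 10.71 in control cells. These groups did not overlap, and the ratio was 1.19-fold (95% interval 0.991 to 1.42) with an adjusted p of 0.287. Its second probe had a log2 difference of 0.03 with overlapping groups and a limma adjusted p of 0.911.

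ATP5MC2 encodes the same ring protein and was read by a bright and a dim probe that disagreed. The bright probe had 11.68 and 11.47 in IL-1β cells, against 11.67 and 11.70 in control cells. The dim probe was detected on both IL-1β arrays and neither control array, with a mean of 6.40 in IL-1β cells and 6.04 in control cells. It passed the detection filter only through the IL-1β arrays, and its raw intensities of 236.5 and 195.2 in IL-1β cells, against 206.7 and 231.0 in control cells, overlapped. The normalised IL-1β mean lay 1.2-fold above a bound for the control arrays. The 95% interval of the ratio, 0.951 to 1.74, includes no difference (limma adjusted p 0.339), so a rise was not shown. That bound is the mean, over the control arrays, of the lowest detected signal, or of the probe's own signal where that is higher. ATP5IF1, the inhibitor that stops the ATP synthase from running in reverse, had a log2 difference of 0.14 by its bright probe (adjusted p 0.492) and of -0.28 by its dim probe (adjusted p 0.246).

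SDHAF1, a factor that protects the iron-sulfur clusters of SDHB while complex II is put together, had the smallest adjusted p of the members. Its log2 difference of 0.47 was close in size to the -0.46 of the pseudogene SDHAP1, and after scaling to the median of all probes the values were 0.23 for SDHAF1 and -0.69 for SDHAP1. SDHAF1 had 8.78 and 8.74 in IL-1β cells, against 8.36 and 8.22 in control cells. The mean was 8.76 ± 0.026 in IL-1β cells and 8.29 ± 0.099 in control cells (SD, n = 2 each), without overlap, and the ratio was 1.38-fold (95% interval 1.16 to 1.65). The limma unadjusted p was 0.00436 and the adjusted p 0.127; the adjusted p was 0.0288 without background correction and 0.0253 with a trended, robust prior. In raw intensities the same probe had 545.2 and 493.8 in IL-1β cells, against 493.1 and 501.6 in control cells, and overlapped. A dimmer SDHAF1 probe had a log2 difference of 0.08 with overlapping groups.

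All 3 tested complex II assembly genes were higher in IL-1β cells by their brightest probes, with a median log2 difference of 0.29 and no overlap. A further gene of this kind, SDHAF2, was paired with no probe. SDHAF3 was at -0.03 after scaling to the median of all probes, which is 0.19 relative to the median of all tested probes there. SDHAF4, which helps SDHA join SDHB, had 8.85 and 8.75 in IL-1β cells, against 8.36 and 8.66 in control cells, with an adjusted p of 0.319. SDHAF3, which acts in the maturation of SDHB, averaged 11.12 ± 0.017 in IL-1β cells and 10.93 ± 0.10 in control cells (SD, n = 2 each), with an adjusted p of 0.386. A second SDHAF3 probe had a log2 difference of -0.07, so 3 of the 5 tested probes of these genes were higher without overlap, against 25.5% of all tested probes. The pseudogene SDHAP1 had 7.56 and 7.45 in IL-1β cells, against 7.78 and 8.15 in control cells, a log2 difference of -0.46 ± 0.15 (SE) with an adjusted p of 0.205. SDHAP1 is close in sequence to SDHA, so its probe may read both, which was not tested; the 2 SDHA probes had log2 differences of 0.04 and -0.06.

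**Figure D5:**
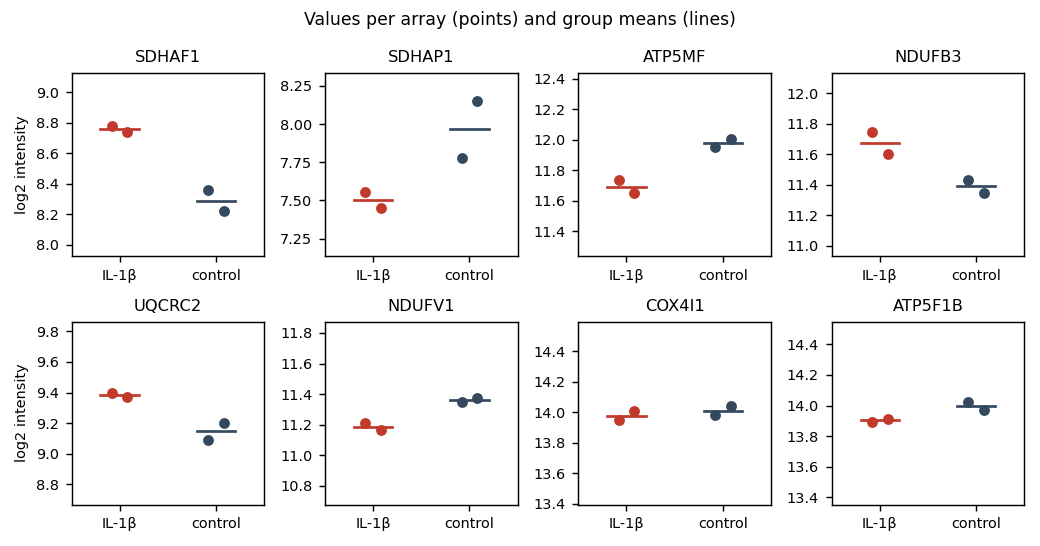
Normalised log2 intensity (y axis) of 8 members on each array (points) with group means (lines), IL-1β to the left of control; each panel spans the same log2 range around its own level. The groups overlap in COX4I1 and are apart in the other 7, and no member had an adjusted p under 0.05. The 8 are a selection: over all member probes 36.8% did not overlap, against 50.7% of all tested probes.

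The 7 complex I assembly genes had 3 higher and 4 lower in IL-1β cells, with a median log2 difference of -0.01. NDUFAF5, an enzyme that hydroxylates NDUFS7, was read by 2 probes that went opposite ways. The bright probe had 9.11 and 9.01 in IL-1β cells, against 9.29 and 9.28 in control cells, a log2 difference of -0.23 with an adjusted p of 0.289. The dim probe averaged 8.05 ± 0.075 in IL-1β cells and 7.80 ± 0.020 in control cells (SD, n = 2 each), a log2 difference of 0.25 with an adjusted p of 0.262. Neither probe overlapped between groups. NDUFAF7, a methyltransferase of complex I assembly, had 3 probes at -0.03, 0.23 and -0.24, and NDUFAF6 had a log2 difference of 0.21 with an adjusted p of 0.344.

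Such disagreement was common. Of 25 member genes with several tested probes, 15 had probes that differed in sign, with a median gap of 0.157 between the highest and lowest log2 difference and a largest gap of 0.475 in NDUFAF5. Other examples were UQCRH, the hinge protein of complex III, at 0.12 and -0.12, and ATP5PF, a stalk subunit of the ATP synthase, at -0.05, 0.31 and -0.06. Which transcripts the separate probes read was not tested.

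In the authors' deposited table of group averages, which lists 1464 probes, 6 member probes appear (4.72% of the 127, against 3.0% of all probes). In the authors' deposited table ATP5MF averaged 3319 in IL-1β cells and 4337 in control cells, and NDUFV1 averaged 2379 in IL-1β cells and 2871 in control cells. The authors' deposited table also lists SDHC, NDUFAF5 and UQCRH as lower in IL-1β cells, and SDHAF1 as higher, at 559.7 in IL-1β cells and 464.0 in control cells. In the authors' deposited table the IL-1β average is the lower one for 84.4% of all listed probes, which is near 5 of 6. The listed SDHC and UQCRH probes are the dimmer ones, and here they had unadjusted p of 0.266 and 0.231.

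The rest of the oxidative pathway was read from lists of related genes. At an unadjusted limma p under 0.05 the gene-level background was 9.4% higher and 8.36% lower in IL-1β cells. No gene of these lists had an adjusted p under 0.05. Of 14 tested electron carriers and entry enzymes 8 were higher and 6 lower, with 1 past the unadjusted mark each way. These were COQ9, a factor of ubiquinone synthesis, and CYCS, cytochrome c. COQ9 had 10.98 and 10.91 in IL-1β cells, against 10.62 and 10.67 in control cells (adjusted p 0.202 with limma). CYCS had 8.21 and 8.13 in IL-1β cells, against 8.39 and 8.46 in control cells (adjusted p 0.25 with limma). The list also holds CYC1, the cytochrome c1 subunit of complex III, which the name rule does not take in. CYC1 had 12.27 and 12.25 in IL-1β cells, against 12.15 and 12.17 in control cells (adjusted p 0.626 with limma).

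Of 19 tested complex IV assembly genes 8 were higher and 11 lower, with 2 higher and 1 lower at the unadjusted mark. COX19, which acts in copper delivery, had 9.61 and 9.54 in IL-1β cells, against 9.22 and 9.26 in control cells (adjusted p 0.176 with limma). COX15, a heme A synthesis enzyme, had a log2 difference of 0.26, and COX20, a chaperone of the mitochondrially encoded second subunit, one of -0.47. ECSIT, of the wider list of 13 complex I assembly genes, also acts in Toll-like receptor signalling. Its dim probe was detected on both IL-1β arrays and neither control array, so it passed the filter only through the IL-1β arrays. ECSIT had 6.51 and 6.24 in IL-1β cells, against 5.92 and 5.92 in control cells (adjusted p 0.168 with limma). UQCC2 led the 5 complex III assembly genes with a log2 difference of 0.19, and all 3 complex V assembly genes were lower in IL-1β cells by between 0.19 and 0.21, none past the unadjusted mark.

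Of 16 tested TCA cycle genes 9 were higher and 7 lower, with a median log2 difference of 0.021. DLST, the lipoyl-carrying component of 2-oxoglutarate dehydrogenase, was at 0.38 and SUCLG2, the GTP-forming succinate-CoA ligase subunit, at -0.32. Of 10 tested regulators of mitochondrial biogenesis 4 were higher and 6 lower. GABPB1, the partner of GABPA, had 7.98 and 7.98 in IL-1β cells, against 8.34 and 8.31 in control cells, a log2 difference of -0.35 with a limma adjusted p of 0.164. GABPA itself was at 0.04 and TFAM, which packages and helps transcribe mitochondrial DNA, at -0.03. PPARGC1A and NRF1 did not reach detection on 2 arrays. Of 6 tested carriers 2 were higher and 4 lower, led by UCP2 at -0.30.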

How the data were processed

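Each of 4 samples was hybridised to 1 Illumina WG-6 v3 array. The authors deposited raw probe intensities on a linear scale without background subtraction and, per the file headers, detection p-values for every probe on each array. The scanner software is not stated there. The authors' deposited series matrix holds intensities that, as read from the values, were background subtracted and scaled to 1 mean. Their deposited table of averages holds group means after 1 factor per array. Their deposited score table, labelled as significant genes, holds a signed score per gene with no stated formula. It lists 5 member genes in 1440 rows, and its scores were not used for results.

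Here the raw intensities went through limma's neqc (limma 3.58.1, R 4.3.3, offset 16), which subtracts background, quantile normalises and takes log2. Probes detected (p under 0.01) on 2 or more arrays were tested with lmFit and eBayes, two-sided, with Benjamini-Hochberg adjustment over 13152 probes and a threshold of 0.05. The SE of a log2 difference had a median of 0.111 (5.52 degrees of freedom), and the number of arrays limits the precision. A gene with several probes is read by its brightest. Symbols are those of the probe-to-gene table.

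Named genes are the extremes and brightest member of each complex, the 10 smallest p, fixed core subunits, isoform groups, genes whose probes differ in sign, members detected on 2 or 3 arrays and the leading gene of each pathway list; NDUFB7, NDUFS5, UQCRB and several genes of the pathway lists were named after their values were seen. The members and lists were chosen with earlier results of these data known.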

Additional observations from a re-analysis of the deposited data

How the results depend on the processing

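With 2 arrays per group, a median SE of 0.111 and dim probes near background, small differences were not detectable. Larger ones did not pass an adjusted p of 0.05 with limma as reported either. The log2 differences over all tested probes ran from -1.281 to 1.467, and the smallest adjusted p was 0.0774. Member probes with an adjusted p under 0.05 numbered 1 without background correction and 2 with a trended, robust prior (SDHAF1 in both, ATP5MF in the second), while all tested probes then gave 622 and 728 calls, against 0 as reported, 91 with an offset of 50, 919 after scaling to the median of all probes, 10 after scaling to the median of tested probes and 66 with detection on all 4 arrays. The member count at an unadjusted p under 0.05, with its share beside that of all tested probes, was 6 as reported (5.66%, against 18.5%), 13 without background correction (12.3%, against 21.1%), 20 after scaling to the median of all probes (0 higher, 20 lower; 18.9%, against 34.1%), 3 without the detection filter (2.36%, against 8.76%), 2 with probes averaged per gene (2.56%, against 19.3%), 13 with a trended, robust prior (12.3%, against 21.3%) and 2 with the replicate number as a block (1.89%, against 15.4%). Leaving out each array gave 3 (without control replicate 1; 2.83%, against 13.4%) to 5 (without IL-1β replicate 2; 4.72%, against 14.5%). Deviations of arrays with the same number had a correlation of -0.0868 over 13152 probes. With 2 arrays per group this cannot decide whether the samples were paired. The block left the adjusted count at 0, and in a balanced design the block cannot move the medians. Scaling to the median of all probes moved the median of all tested probes to -0.218, and there the medians were -0.182 over members, -0.237, -0.196, -0.129, -0.118 and -0.166 for complexes I to V. With the factors of the averaged table (all tested probes -0.121) they were -0.085 over members and -0.14, -0.099 and -0.032 for complexes I to III. Complex II was at -0.043 on the series matrix values (all tested probes -0.0787) and -0.01 with probes averaged per gene, and complex V at 0.065 after scaling to the median of tested probes. Relative to the median of all tested probes, the member median stayed between -0.009 and 0.045 over the 16 alternatives. Leaving out each array gave medians of -0.008 to 0.04 over members, -0.031 to 0.008 for complex I, 0.005 to 0.067 for complex II, -0.014 to 0.169 for complex III, -0.025 to 0.064 for complex IV and -0.045 to 0.029 for complex V. Among 47 named member genes 35 changed sign under at least 1 alternative, and 26 did so relative to the median of all tested probes under that alternative. The 47 leave out NDUFB7, NDUFS5 and UQCRB. Genes of the pathway lists that are not members were not followed over the alternatives. SDHAF1 (0.23 to 0.54), ATP5MF (-0.50 to -0.23), SDHAP1 (-0.69 to -0.28) and NDUFB3 (0.07 to 0.35) were among those that kept theirs under all 16. The causes of these shifts were not tested.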
